A study of Homo sapiens with 40 samples.

Results

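The genes of MHC class I and II antigen presentation were followed through 24 RNA-seq libraries of breast epithelial and breast cancer lines. The 9 genes were chosen by symbol: the class I heavy chains HLA-B, HLA-C and HLA-E, the class I light chain B2M, the peptide transporter subunits TAP1 and TAP2, the class II chains HLA-DRA and HLA-DRB1, and the class II invariant chain CD74. All were found among the 60708 genes of the count files. Each of 8 groups held 3 libraries, labelled as biological replicates. MI-spheres are 3D cultures of MCF-10A, a non-tumorigenic human mammary epithelial line, and MII-spheres are 3D cultures of its HRAS-transformed derivative. Both were grown in ultra-low attachment plates, either unstimulated (Ctrl) or with TGFβ1 at 2.5 ng/ml for 16 h. MDA-MB-231, a human triple-negative breast cancer line with mesenchymal features, was grown as a monolayer. It was left unedited (WT), edited with CRISPR/Cas9 at the first exon of SNAI2, the gene of the transcription factor SLUG (labelled SLUG KO), or transfected with scrambled siRNA (Csi) or with siRNAs against SMAD2, SMAD3 and SMAD4 (siSMAD2/3/4). Edited cells were expanded from single-cell colonies, and the labels do not say how many clones the SLUG KO libraries hold. WT, SLUG KO, Csi and siSMAD2/3/4 cells received no added TGFβ per their labels.

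MHC class I molecules sit on nearly all nucleated cells and show short peptides from the cell's own proteins to CD8+ T cells. The peptides are cut by the proteasome, pumped into the endoplasmic reticulum by the TAP1-TAP2 transporter, trimmed, and loaded on a heavy chain that pairs with B2M. HLA-E, a non-classical class I molecule, is read mainly by natural killer cells. MHC class II molecules show peptides from endocytosed proteins to CD4+ T cells and are normally restricted to professional antigen-presenting cells, with CD74 filling the groove until the peptide is loaded. NLRC5 is the transactivator of class I genes and CIITA that of class II genes. Interferon-γ raises both sets of genes through JAK kinases and IRF1, and some carcinoma cells express class II genes as well.

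In GRCh38, the build of the count files, HLA-B (chr6:31353872-31357188, minus strand), HLA-C (chr6:31268749-31272130, minus strand) and HLA-E (chr6:30489509-30494194, plus strand) lie in the class I region of the MHC on chromosome 6. TAP1 (chr6:32845209-32853816, minus strand), TAP2 (chr6:32821833-32838770, minus strand), HLA-DRA (chr6:32439878-32445046, plus strand) and HLA-DRB1 (chr6:32578769-32589848, minus strand) lie in its class II region. B2M (chr15:44711487-44718851, plus strand) and CD74 (chr5:150400041-150412969, minus strand) lie outside the MHC. Fragments were counted over all exons of a gene with strand ignored, and fragments touching a second gene were not assigned. Exons of other genes covered 2054 of the 6380 exon bases of TAP2, 542 of the 3012 of HLA-B, 577 of the 4643 of TAP1 and 268 of the 6122 of CD74. None of the other 5 members had such overlap. HLA genes differ strongly between people and resemble each other, and the reads were aligned to 1 reference haplotype, so the HLA levels of 2 unrelated lines are less certain than changes within a line.

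RefSeq promoter windows, 250 bases before to 50 bases after a gene's start, were found for 7 of the 9 members and not for HLA-E and HLA-DRA. The part upstream of both the RefSeq start and the start in the count files is shown for 4 of the 5 genes whose response to TGFβ differed between the sphere lines. Capitals mark matches, on either strand, to 4 motifs: CCAAT (the Y box core, bound by NF-Y), TGACGT (the X2 box core), TTTCNNTTC (a form of the interferon-stimulated response element, bound by IRF factors) and GGGGATTCC (an NF-κB site core). Other forms and lengths of the response element were not searched, so stretches without capitals can still hold it.
HLA-B, chr6:31357189-31357429, minus strand: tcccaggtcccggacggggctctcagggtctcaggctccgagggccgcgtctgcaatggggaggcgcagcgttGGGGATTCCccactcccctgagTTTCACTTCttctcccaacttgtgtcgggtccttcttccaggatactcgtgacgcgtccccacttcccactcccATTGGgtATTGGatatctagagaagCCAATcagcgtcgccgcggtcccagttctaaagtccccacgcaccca
HLA-C, chr6:31272131-31272342, minus strand: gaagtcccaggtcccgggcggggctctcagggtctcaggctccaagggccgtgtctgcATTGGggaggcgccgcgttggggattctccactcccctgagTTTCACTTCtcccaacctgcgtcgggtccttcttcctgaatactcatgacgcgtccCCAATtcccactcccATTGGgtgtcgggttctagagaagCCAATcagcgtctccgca
B2M, chr15:44711267-44711486, plus strand: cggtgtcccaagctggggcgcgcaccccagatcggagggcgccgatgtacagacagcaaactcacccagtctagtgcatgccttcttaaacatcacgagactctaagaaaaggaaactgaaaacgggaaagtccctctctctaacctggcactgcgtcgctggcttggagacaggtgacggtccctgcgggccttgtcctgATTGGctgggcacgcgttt
TAP2, chr6:32838771-32838989, minus strand: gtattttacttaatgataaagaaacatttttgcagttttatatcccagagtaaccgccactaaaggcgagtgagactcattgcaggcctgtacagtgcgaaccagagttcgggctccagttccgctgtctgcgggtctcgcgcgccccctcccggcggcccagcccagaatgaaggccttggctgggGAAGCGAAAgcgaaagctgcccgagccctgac

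HLA-B and HLA-C each held the match TTTCACTTC, at position -155 and -151 counted from the RefSeq start. Y box cores stood at -81, -74 and -56 in HLA-B and at -192, -95, -80 and -56 in HLA-C. HLA-B alone among the 7 genes held GGGGATTCC, at position -177. B2M held 1 Y box core, at -49, and TAP2 the match GAAGCGAAA, TTTCNNTTC on the other strand, at position -63. In the whole windows, the Y box core occurred in 6 of the 7 genes and TGACGT in none. TAP1 had a Y box core at -249 in 1 of its windows and none in the other, and was counted among the 6. Over all 35116 windows, the Y box core was found in 34.6%, TGACGT in 7.98%, TTTCNNTTC in 7.66% and GGGGATTCC in 0.285%. No matches overlapped in the windows shown. These are letter matches in the reference sequence, and the alleles of these lines were not read.

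Total counts ranged from 14124688 to 38406952 per library. In 7 of the 8 groups, every pair of replicates had a Pearson's r across genes of 0.99 or more. WT replicate 2 stood apart from the other WT libraries, with r of 0.9373 and 0.9313 against 0.9925 between those, and the tests that use WT were repeated without it. Csi and siSMAD2/3/4 libraries carry another batch label than the other 18 libraries, and siSMAD2/3/4 replicates 1 and 2 came from another flow cell than siSMAD2/3/4 replicate 3 and the Csi libraries. Levels are in CPM, counts scaled to a common library size, after TMM scaling over the 24 libraries. Basal epithelial markers summed to between 1090 and 3840 CPM in spheres and to 13.2 to 44.6 CPM in MDA-MB-231 libraries, and markers of the mesenchymal line to 28.7 to 68.2 and 2830 to 3840 CPM. CDH2 and SPARC of the latter list stayed low in MDA-MB-231 cells (highest group means 2.28 and 4.21 CPM). Of the basal list, TP63 had 11, 14 and 12 counts in unstimulated MII and 1333, 1108 and 940 in unstimulated MI libraries. Between these groups, 3 of the 6 basal markers were lower and 3 higher in MII-spheres. The 10 leukocyte markers summed to 95.9 to 234 CPM in spheres and 2.72 to 13.8 CPM in MDA-MB-231 libraries, with 1 to 3 of them reaching 1 CPM in any group. PTPRC, the pan-leukocyte gene CD45, had a highest group mean of 0.405 CPM.

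Class II genes separated the lines, whereas class I genes were present in all of them. HLA-DRA was at 53.9, 31.7 and 66.4 CPM in WT, 69.0, 63.9 and 71.7 CPM in SLUG KO, 108.4, 119.5 and 119.8 CPM in Csi and 133, 129.7 and 126 CPM in siSMAD2/3/4 libraries. In the 12 sphere libraries it never exceeded 0.860 CPM. CD74 was at 156, 314 and 169.8 CPM in WT, 254, 218 and 264 CPM in SLUG KO, 631, 672 and 639 CPM in Csi and 764, 748 and 686 CPM in siSMAD2/3/4 libraries. HLA-DRB1 was at 17.9, 23.2 and 21.6 CPM in WT, 33.9, 27.7 and 34.3 CPM in SLUG KO, 52.8, 59.1 and 57.0 CPM in Csi and 66.9, 62.3 and 59.0 CPM in siSMAD2/3/4 libraries. For each of the 3 class II genes the sphere libraries all lay under the MDA-MB-231 libraries. HLA-DRB1 had 0 counts in all 3 unstimulated MII libraries, where a count of 0 allows up to 3 counts per library, and 0 to 6 counts in the other sphere libraries.

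HLA-B had the widest range among class I genes. Its mean was 54.1 ± 0.705 CPM (SD, n = 3) in unstimulated MII-spheres, 64.3 ± 3.26 in stimulated MII-, 107.9 ± 2.24 in stimulated MI- and 140.3 ± 3.32 in unstimulated MI-spheres. In MDA-MB-231 cells it was 472 ± 41.4 in WT, 693 ± 16.2 in SLUG KO, 1194 ± 32.2 in Csi and 1206 ± 63.5 CPM in siSMAD2/3/4. Of the 7 steps between neighbours in this order, only that between Csi and siSMAD2/3/4 had overlapping libraries. TAP1 and TAP2, the transporter subunits, had their lowest means in unstimulated MII-spheres (23.0 and 10.8 CPM) and their highest in Csi cells (142 and 85.8 CPM), a ratio of 6.20 and 7.93. B2M, which every class I molecule needs, had its lowest mean in WT (608 ± 263 CPM) and its highest in stimulated MII-spheres (1395 ± 12.1 CPM), a ratio of 2.29, and 5 of its 7 neighbouring groups overlapped. HLA-C and HLA-E ranged over ratios of 2.80 and 2.48. Over the 9 genes, 34 of 63 neighbouring groups did not overlap, where 39.2% of those of all 15174 genes with a mean of at least 1 CPM did not. Culture format, batch and line are shared within these blocks of groups, so the order across them is a description.

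**Figure D1:**
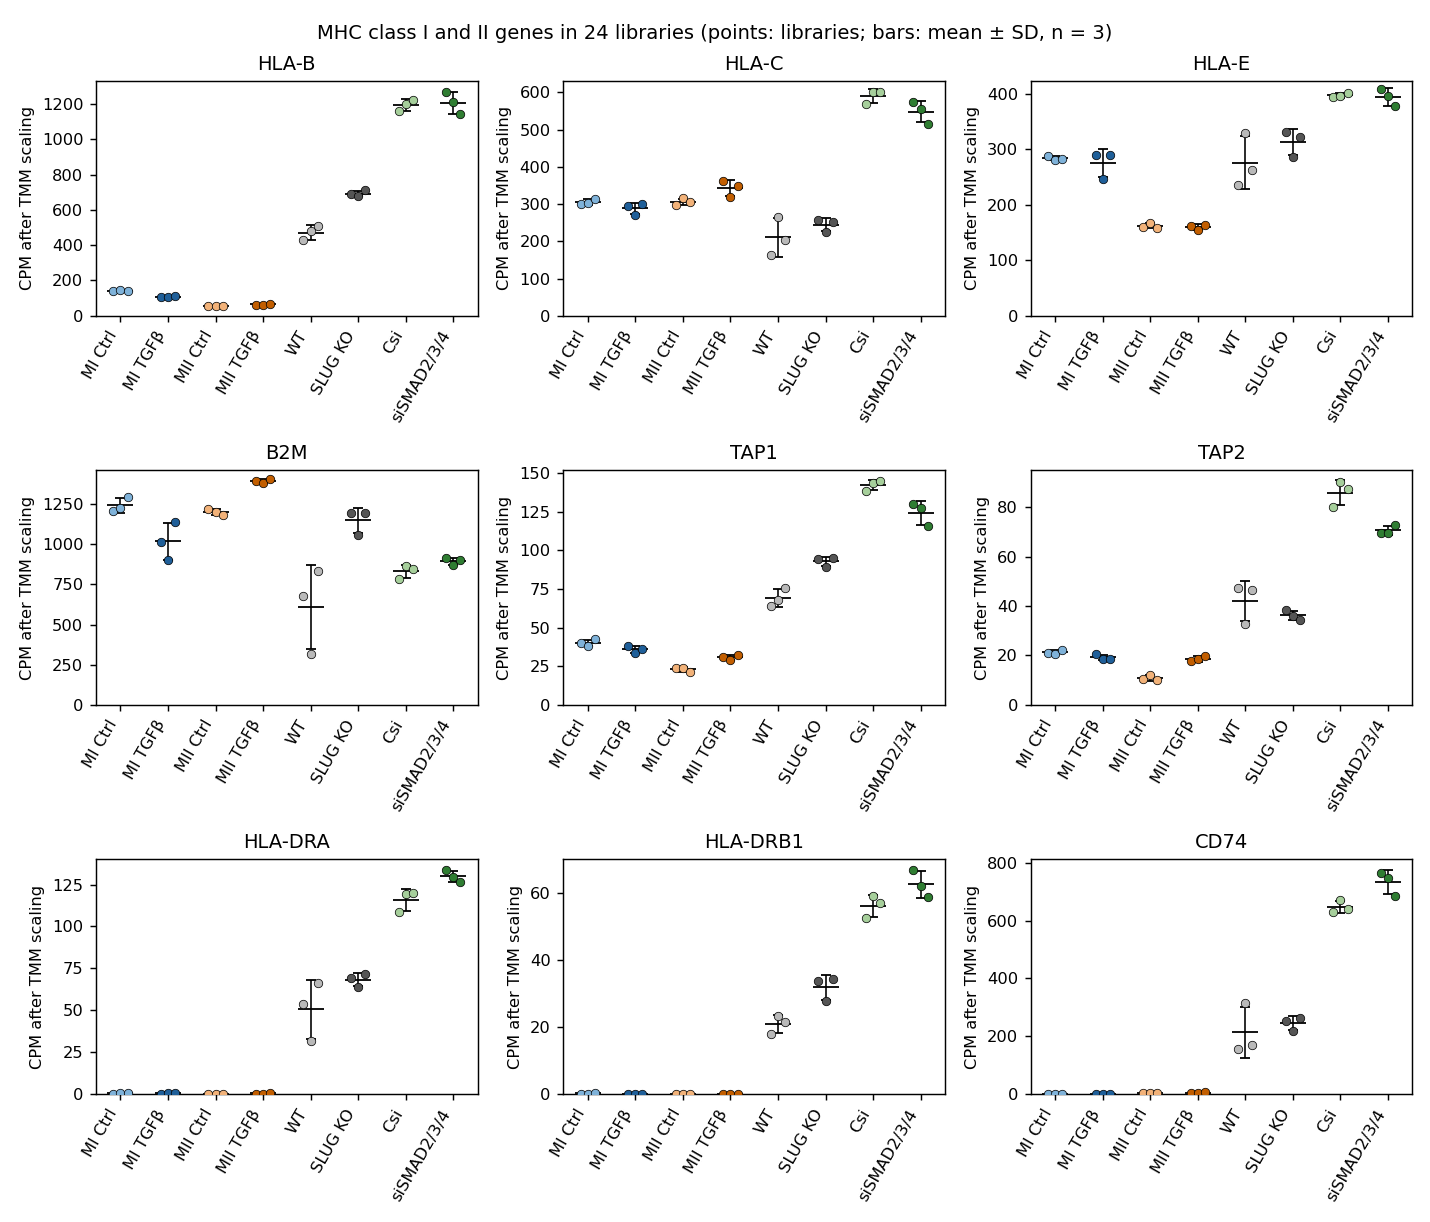
Levels of the 9 genes in CPM after TMM scaling (linear axes from 0) for each library of the 8 groups, with the mean and SD of 3 libraries as horizontal lines and bars. HLA-DRA, HLA-DRB1 and CD74 lie near 0 in all sphere groups, where the highest CD74 library is at 5.52 CPM, and WT replicate 2 has the lowest B2M level of all, 318 CPM.

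Scaled to exon length, B2M had the highest level of the 9 genes in all 4 sphere groups, with 228 CPM per kb in unstimulated MI-spheres, followed by HLA-C (122), HLA-E (97.1) and HLA-B (46.6). In WT cells HLA-B came first (157 CPM per kb), before B2M (111.5) and HLA-E (94.3), and without WT replicate 2 the order was the same (156, 138 and 85.2). TAP1 was above TAP2 in every group, at 8.63 against 3.35 CPM per kb in unstimulated MI-spheres and 30.7 against 13.5 in Csi cells. HLA-DRA was at 40.7 CPM per kb in WT cells, against 34.8 for CD74 and 17.0 for HLA-DRB1 (48.4, 26.6 and 16.1 without WT replicate 2). Exon length sums all annotated isoforms, at 5455 bases for B2M, 3012 for HLA-B, 6122 for CD74 and 1244 for HLA-DRA. In CPM without this scaling, WT cells had more B2M (608) than HLA-B (472), and more CD74 (213) than HLA-DRA (50.7). Both orders in WT cells therefore rest on these lengths. The overlaps named above lower the values of TAP2, HLA-B, TAP1 and CD74.

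**Figure D2:**
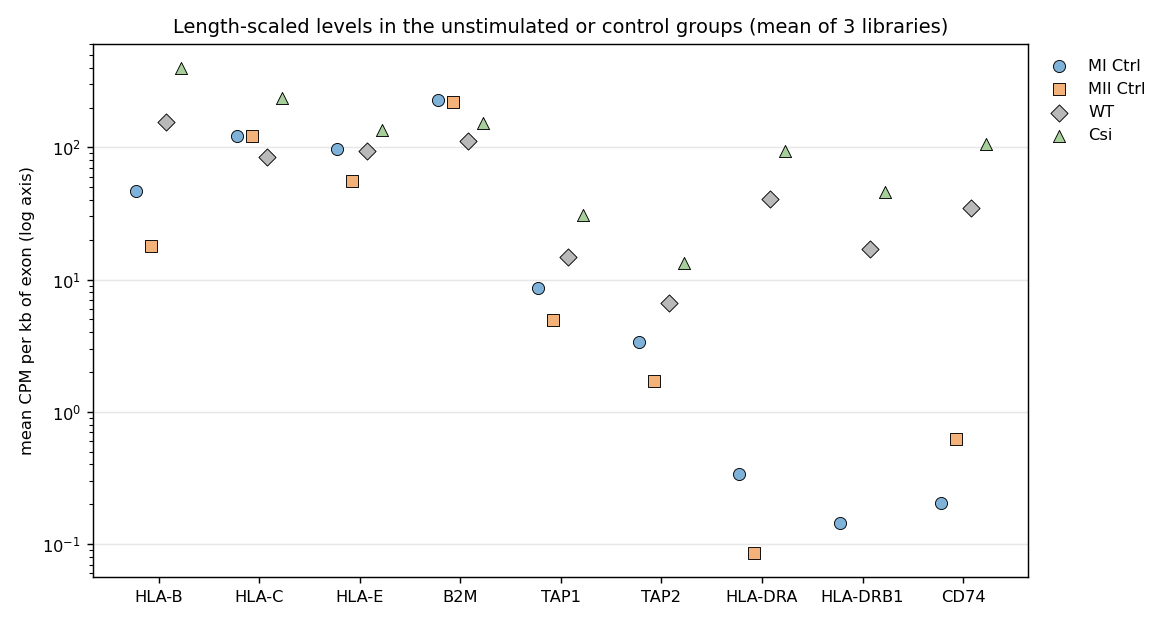
Mean level of each gene per kb of exon length (CPM per kb, log axis, 3 libraries per point) in unstimulated MI- and MII-spheres and in WT and Csi MDA-MB-231 cells. HLA-DRB1 in MII-spheres is at 0 and is not drawn. The class II genes of the MDA-MB-231 groups lie between 17.0 and 105.8 CPM per kb, and those of the spheres at most at 0.619.

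The first comparisons asked how TGFβ changes gene expression in normal-like and in HRAS-transformed spheres. A gene was called, and is named higher or lower, where the adjusted p of edgeR's quasi-likelihood test over all genes tested was under 0.05. Bracketed values are log2 fold changes with their SE. SMAD7, a feedback inhibitor of TGFβ signalling, was at 11.7 and 12.9 CPM in MI- and 9.72 and 8.99 CPM in MII-spheres without a call in either line. Of 6 basal epithelial markers, 5 were higher with TGFβ in MI- and 6 in MII-spheres. Their summed level was 2000 to 2050 CPM without and 3510 to 3840 CPM with TGFβ in MI-spheres, and 1090 to 1140 and 2390 to 2520 CPM in MII-spheres. Of the mesenchymal markers, 5 of 6 tested were higher in MI- and 3 of 5 in MII-spheres, with sums of 35.7 to 42.6 CPM without and 61.8 to 68.0 CPM with TGFβ in MI- and of 28.7 to 31.9 and 46.8 to 68.2 CPM in MII-spheres. The part of either list in the results was not tested. HRAS was at 40.7 CPM in unstimulated MI- and 221 CPM in unstimulated MII-spheres.

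In MI-spheres, TGFβ lowered HLA-B, B2M and TAP1. HLA-B was at 138, 144 and 139 CPM in the unstimulated and 108.999, 105.4 and 109.5 CPM in the stimulated libraries (log2 fold change -0.41 ± 0.0506 SE, adjusted p = 7.43e-07). B2M was at 1205, 1228 and 1294 CPM without and 1013, 905 and 1137 CPM with TGFβ (log2 fold change -0.32 ± 0.0609 SE, adjusted p = 0.00015). The groups did not overlap for either gene, and the share of all genes without overlap was not computed. In bulk RNA, fewer expressing cells and less RNA per cell cannot be told apart. TAP1 was at 40.0, 37.9 and 42.4 CPM without and 38.4, 33.8 and 35.9 CPM with TGFβ, so that the groups overlapped (log2 fold change -0.19 ± 0.0681 SE, adjusted p = 0.0251). Its call was lost without Ctrl replicate 1, Ctrl replicate 3 or TGFβ replicate 2 (adjusted p = 0.0626, 0.149 and 0.0826), with DESeq2 (adjusted p = 0.205) and without a low-count filter (adjusted p = 0.0568). TAP2, at 21.2, 20.7 and 22.2 CPM without and 20.5, 18.4 and 18.7 CPM with TGFβ without overlap (log2 fold change -0.19 ± 0.0794 SE, adjusted p = 0.0528), and HLA-C (-0.11 ± 0.0499, adjusted p = 0.0597) missed the threshold, though HLA-C passed it without TGFβ replicate 3 (adjusted p = 0.0118). HLA-E was at 287, 281 and 283 CPM without and 290.4, 246 and 289 CPM with TGFβ and was not called (adjusted p = 0.23). Thus 3 of the 6 class I genes were lower and none higher, where 27.4% of all genes tested were lower and 28.7% higher. HLA-DRA and CD74 were tested and not called, and HLA-DRB1 had too few counts to be tested.

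In MII-spheres 5 of the 6 class I genes were higher with TGFβ. HLA-B was at 54.8, 54.1 and 53.4 CPM in unstimulated and 63.2, 61.7 and 67.9 CPM in stimulated libraries (log2 fold change 0.22 ± 0.0558 SE, adjusted p = 0.000588). B2M was at 1221, 1202 and 1182 CPM without and 1396, 1382 and 1406 CPM with TGFβ (log2 fold change 0.19 ± 0.0320 SE, adjusted p = 1.66e-06). TAP2 rose most among the members, from 10.6, 12.04 and 9.87 to 17.6, 18.4 and 19.9 CPM (log2 fold change 0.74 ± 0.0975 SE, adjusted p = 4.98e-09). TAP1 was at 23.7, 24.1 and 21.0 CPM without and 31.2, 28.9 and 32.1 CPM with TGFβ (log2 fold change 0.39 ± 0.0731 SE, adjusted p = 8.97e-06). HLA-C was at 298, 315 and 305 CPM without and 361, 319 and 348 CPM with TGFβ (log2 fold change 0.14 ± 0.0376 SE, adjusted p = 0.0017). In CPM after TMM scaling, every stimulated library lay above every unstimulated one for these 5 genes. The share of all genes that separate in this way was not computed. HLA-E was the class I gene without a call, at 161, 167 and 159 CPM without and 162, 154 and 164 CPM with TGFβ (adjusted p = 0.3). Hence 5 of 6 class I genes were higher and none lower, against 29.9% and 27.6% of all genes tested. The 5 calls held in all 12 alternative fits, but each of these scaled the libraries by TMM or DESeq2's size factors. Fits without such scaling were not run. HLA-C had 4514, 9245 and 5525 counts in the unstimulated libraries, of totals of 14124688, 27759376 and 16810084. In the stimulated libraries it had 5367, 4823 and 5104 counts, of 15560311, 15587660 and 15370453. Relative to these totals alone the groups overlapped, so the separation of HLA-C depends on the scaling. How far the other small rises depend on it was not tested. Over the 24 libraries, TMM factors were 1.072, 1.056 and 1.079 in unstimulated and 0.955, 0.969 and 0.954 in stimulated MII libraries. CD74 was at 4.49, 3.07 and 3.80 CPM without and 4.04, 3.91 and 5.52 CPM with TGFβ and was not called (adjusted p = 0.247). None of the tested changes in either line reached a 2-fold difference.

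The responses of the lines were compared in 1 fit of the 12 sphere libraries, as the MII response minus the MI response. The difference was positive and past the threshold for TAP2 (0.94 ± 0.124 SE on the log2 scale, edgeR adjusted p = 1.46e-07), HLA-B (0.64 ± 0.0725, adjusted p = 4.82e-09), TAP1 (0.59 ± 0.102, adjusted p = 2.21e-05), B2M (0.52 ± 0.0694, adjusted p = 2.12e-07) and HLA-C (0.26 ± 0.0651, adjusted p = 0.0025). HLA-E had a difference of 0.04 ± 0.0681 and was not called. Of all genes tested, 12.6% had a higher and 9.75% a lower response in MII-spheres, and of the 6 class I genes 5 had a higher and none a lower one. The call for HLA-C was lost without MII TGFβ replicate 1 (adjusted p = 0.0721). Those of HLA-B, B2M, TAP1 and TAP2 held in all 17 alternatives.

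**Figure D3:**
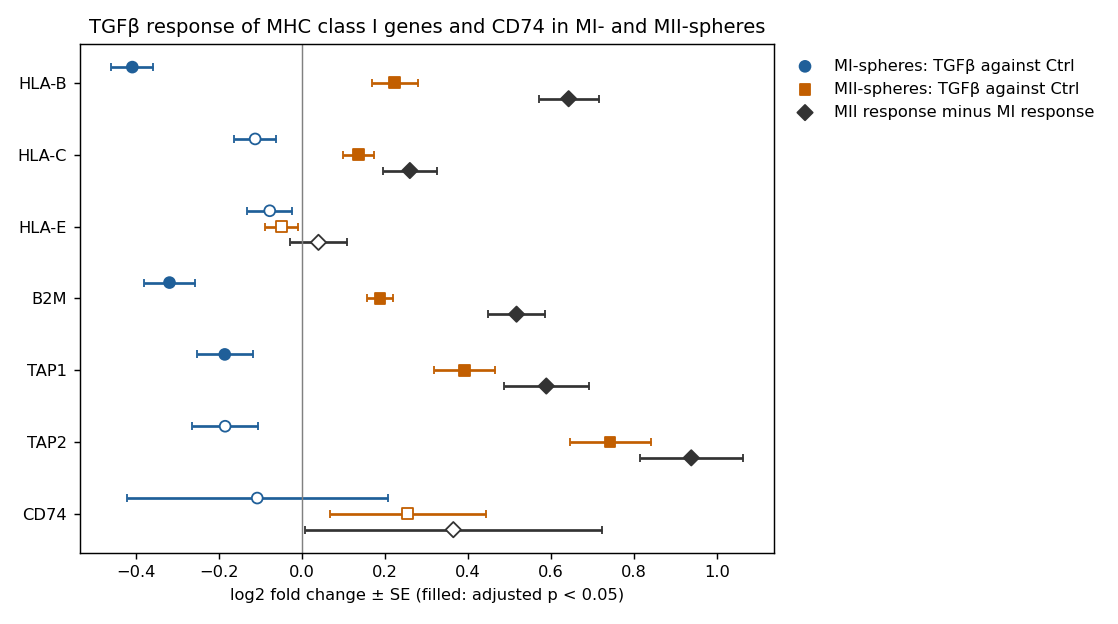
Log2 fold change ± SE (3 libraries per group, edgeR) of 7 of the genes for TGFβ against Ctrl in MI-spheres (circles) and MII-spheres (squares), and for the MII response minus the MI response (diamonds), filled where the adjusted p is under 0.05. HLA-B, B2M and TAP1 lie left of 0 in MI- and right of 0 in MII-spheres, and HLA-E lies near 0 in both. HLA-DRA and HLA-DRB1, with few counts in spheres, are not drawn.

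Other genes of the pathway, 64 genes in 7 lists, were examined in the same fits. In MI-spheres 9 of 54 pathway genes tested were higher and 21 lower with TGFβ, against 28.7% and 27.4% of all genes tested. Their median log2 fold change was -0.105 against -0.016 over all genes tested. In MII-spheres 24 of 53 were higher and 8 lower, against 29.9% and 27.6% of all genes, with a median of 0.252 against -0.018. The interaction was positive for 28 of 54 genes and negative for 2, against 12.6% and 9.75% of all genes, with a median of 0.325 against -0.001. By list, it was positive for all 5 immunoproteasome genes, 5 of 7 genes of peptide loading and trimming, 2 of 5 tested class II genes, 6 of 13 regulators and 7 of 18 tested interferon-stimulated genes, and negative for none of these. The class I-like genes, stress ligands and related molecules, had 1 positive and 2 negative differences.

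Among single genes, NLRC5, the class I transactivator, was at 8.94, 9.76 and 9.80 CPM in unstimulated and 6.75, 8.16 and 5.24 CPM in stimulated MI-spheres (log2 fold change -0.53 ± 0.143 SE, adjusted p = 0.00372). In MII-spheres it was at 4.69, 5.69 and 4.35 CPM without and 6.05, 5.76 and 7.71 CPM with TGFβ (log2 fold change 0.36 ± 0.154 SE, adjusted p = 0.0438), and the responses differed by 0.89 ± 0.214 (adjusted p = 0.00159). IRF1, an interferon-induced activator of class I genes, fell in both lines, from 119.6, 124 and 120.7 to 44.4, 50.4 and 51.4 CPM in MI-spheres (log2 fold change -1.34 ± 0.0621 SE, adjusted p = 1.48e-13) and from 104.9, 109.022 and 106.7 to 74.3, 80.1 and 84.1 CPM in MII-spheres (log2 fold change -0.45 ± 0.0485 SE, adjusted p = 1.62e-11). The fall was smaller in MII-spheres (difference 0.90 ± 0.0801, adjusted p = 1.59e-11). CIITA was not called in either line (adjusted p = 0.57 and 0.0534) nor in the interaction (adjusted p = 0.436).

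The largest falls were those of SOCS1, an inhibitor of JAK signalling, at -2.75 in MI- and -2.22 on the log2 scale in MII-spheres. In MI-spheres they were followed by IRF1 and CXCL10, an interferon-induced chemokine (-1.18 ± 0.450 SE, edgeR adjusted p = 0.0313). CXCL10 had only 33, 15 and 9 counts without and 7, 12 and 6 counts with TGFβ there. The largest rises in MI-spheres were those of the stress ligand MICA (0.91), the chaperone PDIA3 (0.70) and the iron regulator HFE (0.68). In MII-spheres the stress ligand MICB (1.26), OAS3 (0.95) and IFIT3 (0.87), both antiviral genes, rose most, and the interferon regulatory factors IRF7 (-1.05) and IRF9 (-0.90) fell most after SOCS1. MICB had few counts in MII-spheres, 22, 28 and 18 without and 36, 45 and 39 with TGFβ, as did IRF9, with 47, 88 and 56 without and 32, 25 and 17 with TGFβ. The largest positive differences between the lines were those of MICB (1.27 ± 0.356), IFI27 (1.06 ± 0.209) and PSMB9, an immunoproteasome subunit (0.96 ± 0.246). The negative ones were MR1 (-0.46 ± 0.0867), which presents microbial metabolites, and MICA (-0.41 ± 0.145).

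**Figure D4:**
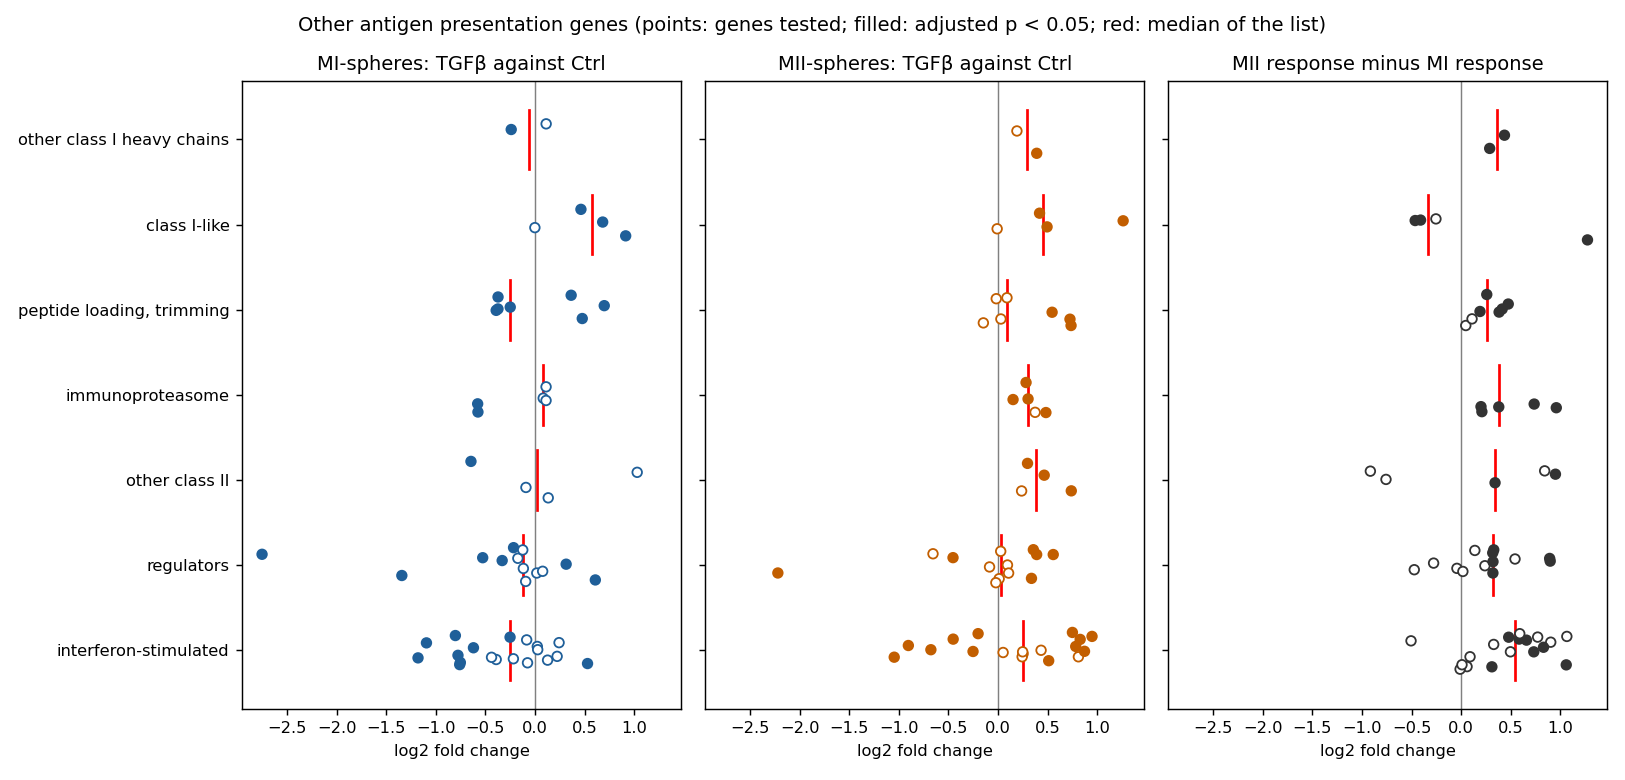
Log2 fold change of each tested gene of 7 pathway lists with TGFβ in MI-spheres (left), in MII-spheres (middle) and as the difference of the responses (right), filled where edgeR's adjusted p is under 0.05, with the median of each list as a red line. The immunoproteasome genes lie right of 0 in the right panel, all 5 filled, and the lowest points in the left and middle panels are SOCS1.

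Without TGFβ, MII-spheres had less of 4 of the 6 class I genes than MI-spheres. HLA-B had a mean of 140.3 CPM in MI- and 54.1 CPM in MII-spheres (log2 fold change -1.37 ± 0.0451 SE, adjusted p = 4.9e-33), the only one of the 4 with more than a 2-fold difference. TAP2 (-0.96 ± 0.0862, adjusted p = 1.71e-14), HLA-E (-0.80 ± 0.0365, adjusted p = 1.64e-26) and TAP1 (-0.80 ± 0.0657, adjusted p = 7.75e-16) were also lower. None of the 4 overlapped between the lines, and the share of all genes without overlap was not computed. HLA-C (0.0097 ± 0.0353) and B2M (-0.043 ± 0.0342) were not called. Over all genes tested 32.5% were lower and 31.7% higher. CD74 was higher in MII-spheres, at 4.49, 3.07 and 3.80 CPM against 1.54, 1.20 and 1.04 CPM (log2 fold change 1.53 ± 0.232 SE, adjusted p = 7.03e-08), on counts of 68, 90 and 69 against 40, 25 and 20. Of 3 tested leukocyte markers, CD14 (193 against 101.5 CPM) and LYZ (35.8 against 0.260 CPM) were higher in the same group and ITGAM lower (0.521 against 2.48 CPM), with PTPRC at 0.0844 CPM, and their part in the CD74 result was not tested. HLA-DRA and HLA-DRB1 were not tested, with 7, 9 and 11 HLA-DRA counts in MI- and 3, 2 and 1 in MII-spheres.

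With TGFβ in both lines, HLA-B (-0.72 ± 0.0560, edgeR adjusted p = 9.59e-11) and HLA-E (-0.75 ± 0.0521, adjusted p = 1.21e-11) were again lower in MII-spheres. B2M (0.48 ± 0.0521, adjusted p = 2.82e-08) and HLA-C (0.28 ± 0.0497, adjusted p = 4.22e-05) were higher, as was CD74 (1.91 ± 0.260, adjusted p = 9.88e-07). TAP1 was lower (-0.20 ± 0.0742, adjusted p = 0.0222), but not without MI TGFβ replicate 1 (adjusted p = 0.0896), without MII TGFβ replicate 2 (adjusted p = 0.112) or with DESeq2 (adjusted p = 0.0599). TAP2 was not called (-0.016 ± 0.0908, adjusted p = 0.893), and HLA-DRA only without MII TGFβ replicate 3 (adjusted p = 0.0197). Here 31.1% of all genes were higher and 31.6% lower. This comparison uses the same libraries as the responses within each line.

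Pathway genes were mostly lower in unstimulated MII-spheres, with 29 of 53 lower and 10 higher, against 32.5% and 31.7% of all genes tested (median -0.299 against 0.017). Interferon-stimulated genes accounted for 13 of these 29. The largest differences were those of IFIT1 (-2.22), the interferon-γ receptor chain IFNGR1 (-2.22) and OAS2 (-2.03), and the largest rises those of IRF9 (0.98), IRF7 (0.86) and OAS1 (0.73). IFNGR1 was at 267, 268 and 284 CPM in MI- and 58.0, 57.9 and 60.1 CPM in MII-spheres, with no overlap. NLRC5 (-0.92 ± 0.126, adjusted p = 7.15e-09), CIITA (-0.56 ± 0.228, adjusted p = 0.0279) and IRF1 (-0.18 ± 0.0413, adjusted p = 0.000189) were lower. In the stimulated spheres 19 of 53 pathway genes were higher and 17 lower, near the 31.1% and 31.6% of all genes tested (median 0.091 against 0.004). CTSS, the protease that trims the invariant chain, rose most (1.06), before OAS1 (1.04) and IRF7 (0.92). IFNGR1 (-1.89), the heavy chain HLA-F (-1.34) and IFIT1 (-1.31) fell most, IFIT1 on counts of 66, 86 and 86 in MI- and 8, 24 and 31 in MII-spheres. There IRF1 was higher (0.73) and CIITA lower (-1.03), and NLRC5 was not called (adjusted p = 0.914).

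WT MDA-MB-231 cells were set against unstimulated MI-spheres, a comparison in which cell line and culture format cannot be told apart. All 3 class II genes were higher in WT cells. Summed over 3 libraries, HLA-DRA had 3919 counts in WT and 27 in MI-spheres, a ratio of 124 after scaling (95% exact interval 85.2 to 189, counting error only). HLA-DRB1 had 1609 and 11 counts (ratio 125, 69.7 to 251) and CD74 16357 and 85 (ratio 165, 133 to 206). Without WT replicate 2 the ratios were 147, 118 and 126. The edgeR adjusted p-values with all libraries were 1.77e-05, 1.66e-05 and 1.4e-05. HLA-B was at 428, 478 and 509.6 against 138, 144 and 139 CPM (log2 fold change 1.77 ± 0.163 SE, adjusted p = 0.000105), and TAP2 (1.00 ± 0.190, adjusted p = 0.00348) and TAP1 (0.81 ± 0.159, adjusted p = 0.00408) were also higher. Without WT replicate 2 the log2 fold changes of these class I genes were 1.72, 1.11 and 0.78. The 6 genes named here kept their calls in all of the 11 or 12 alternatives in which they were tested, where 28.1% of all genes were higher.

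B2M was lower in WT cells, at 677, 318 and 831 against 1205, 1228 and 1294 CPM (log2 fold change -1.01 ± 0.332 SE, adjusted p = 0.0355), where 25.9% of all genes were lower. WT replicate 2 held the lowest value, and without it the difference was -0.74 (adjusted p = 3.24e-06). The call was lost without WT replicate 1 (adjusted p = 0.0648) and without MI Ctrl replicate 1, 2 or 3 (adjusted p = 0.0835, 0.0856 and 0.0955). HLA-C (-0.51 ± 0.220, adjusted p = 0.0882) and HLA-E (-0.016 ± 0.188, adjusted p = 0.95) were not called with all 6 libraries. Without WT replicate 2 both were called lower, as were 38.3% of all genes tested in that fit (36.6% were higher), with log2 fold changes of -0.76 (adjusted p = 1.48e-06) and -0.21 (adjusted p = 0.0163).

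Of the other class II genes, 6 of 10 tested were higher in WT cells and 1 lower, or 6 and 2 without WT replicate 2. Over all genes tested 28.1% were higher and 25.9% lower, or 36.6% and 38.3% without that library. HLA-DPB1 had 746 counts in WT libraries and 0 in MI-spheres, at least 213-fold higher when 3 counts over the group are allowed. HLA-DPA1 had 1749 and 13 counts (ratio 115, 67.1 to 217) and HLA-DRB5, whose reads can be confused with those of HLA-DRB1, 249 and 2. CIITA was at 14.8, 47.3 and 12.7 CPM in WT and 2.47, 2.93 and 2.33 CPM in MI-spheres (log2 fold change 3.31 ± 0.563 SE, adjusted p = 0.00205) and NLRC5 at 32.7, 64.4 and 32.3 CPM in WT and 8.94, 9.76 and 9.80 CPM in MI-spheres (log2 fold change 2.21 ± 0.321 SE, adjusted p = 0.000935). For both, WT replicate 2 was the highest library, and without it the differences were 2.39 ± 0.151 (adjusted p = 1.48e-09) for CIITA and 1.76 ± 0.0962 (adjusted p = 2.66e-10) for NLRC5. IRF1 was lower (-0.95 ± 0.156, adjusted p = 0.00171). The largest falls were those of OAS1 (-6.58), IFNGR1 (-3.24) and GBP2 (-2.76), which were -6.37, -2.94 and -2.62 without WT replicate 2. Of 20 interferon-stimulated genes 11 were higher and 3 lower, or 11 and 6 without that library.

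The SLUG knockout was compared with WT cells. SNAI2 itself was at 30.1, 20.02 and 33.1 CPM in WT and 63.4, 57.3 and 64.6 CPM in the libraries labelled SLUG KO (log2 fold change 1.10 ± 0.214 SE, adjusted p = 0.0399). A small insertion or deletion need not lower the RNA count, so this count does not check the label. With all 6 libraries edgeR called none of the 9 genes, where 1.45% of all genes were higher and 1.89% lower. At an unadjusted p under 0.05 the count was 4 of 9, and the share of all genes at that threshold was not computed. DESeq2 called 0 of the 9, where of 23008 genes tested it called 550 higher and 654 lower. HLA-B was at 428, 478 and 509.6 CPM in WT and 690.4, 678 and 710.1 CPM in SLUG KO libraries (log2 fold change 0.50 ± 0.158 SE, adjusted p = 0.154). The groups did not overlap for HLA-B, B2M, TAP1 or HLA-DRB1, and the share of all genes without overlap here was not computed. B2M in WT replicate 2 (318 CPM) was well under the other WT libraries (677 and 831 CPM). HLA-DRA was likewise lower there (31.7 against 53.9 and 66.4 CPM). CD74 was at 314 CPM in WT replicate 2 and at 156 and 169.8 CPM in the others.

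Without WT replicate 2, 7 of the 9 genes were higher in the libraries labelled SLUG KO and 1 was lower, but so were many others: 16.8% of all genes tested were then higher and 14.4% lower. HLA-DRB1 (0.67 ± 0.117 SE, edgeR adjusted p = 0.000395), B2M (0.58 ± 0.106, adjusted p = 0.000552), CD74 (0.57 ± 0.0949, adjusted p = 0.000278) and HLA-B (0.54 ± 0.0970, adjusted p = 0.000508) had the largest rises. HLA-C (0.39 ± 0.0999), TAP1 (0.39 ± 0.0924) and HLA-E (0.30 ± 0.0919) rose less, TAP2 fell (-0.40 ± 0.0939, adjusted p = 0.00436), and HLA-DRA was not called (adjusted p = 0.26). This fit rests on 2 WT libraries, and the 9 genes had no call when any other library was left out. Of the pathway lists, 4 of 60 tested genes were higher with all libraries, against 1.45% of all genes. They were led by HLA-DPA1 (1.5025 ± 0.290, adjusted p = 0.0396), IFI27 (1.35 ± 0.263, adjusted p = 0.0406) and MR1 (1.23 ± 0.202, adjusted p = 0.0214). Without WT replicate 2, 28 were higher and 2 lower, whereas without any other single library these 4 calls were lost, and with at least 10 counts in every library only that of MR1 was left. HLA-DPA1, the α chain of HLA-DP, was at 25.2, 13.2 and 29.3 CPM in WT and 67.2, 58.9 and 72.4 CPM in SLUG KO libraries. NLRC5, CIITA and IRF1 were not called with all libraries (adjusted p = 0.791, 0.489 and 0.531). Without WT replicate 2, NLRC5 (0.61 ± 0.0954, adjusted p = 0.00015) and IRF1 (0.29 ± 0.0876, adjusted p = 0.0192) were higher, and CIITA went from -0.70 to 0.21 ± 0.125 without a call (adjusted p = 0.23).

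Depletion of SMAD2, SMAD3 and SMAD4, the transcription factors of the TGFβ pathway, was compared with scrambled siRNA. SMAD2 was at 93.4, 95.2 and 91.6 CPM in Csi and 23.95, 24.9 and 24.9 CPM in siSMAD2/3/4 libraries, SMAD4 at 56.1, 56.6 and 58.7 CPM in Csi and 18.3, 16.3 and 17.1 CPM in depleted cells, and SMAD3 at 278.8, 276 and 269.9 CPM in Csi and 176, 169 and 165 CPM in depleted cells. TAP2 and TAP1 were lower after depletion. TAP2 was at 80.2, 90.0 and 87.2 CPM in Csi and 69.4, 69.7 and 72.9 CPM in depleted cells (log2 fold change -0.28 ± 0.0475 SE, adjusted p = 1.9e-05), and TAP1 at 139, 143 and 145 CPM in Csi and 129.8, 128 and 116 CPM in depleted cells (log2 fold change -0.19 ± 0.0448 SE, adjusted p = 0.000979), without overlap. Both calls held in all 12 alternatives. With flow cell as a term, the differences were -0.23 ± 0.0660 (adjusted p = 0.0087) and -0.30 ± 0.0578 (adjusted p = 0.000188).

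The class II genes were higher after depletion, CD74 at 631, 672 and 639 against 764, 748 and 686 CPM (log2 fold change 0.18 ± 0.0403 SE, adjusted p = 0.000557), HLA-DRA at 108.4, 119.5 and 119.8 against 133, 129.7 and 126 CPM (log2 fold change 0.17 ± 0.0435 SE, adjusted p = 0.00275), and HLA-DRB1, whose groups overlapped, by 0.16 ± 0.0530 (adjusted p = 0.0187). B2M was also higher (0.11 ± 0.0379, adjusted p = 0.0222), and HLA-C lower (-0.10 ± 0.0397, adjusted p = 0.0429). All 4 rises lost their call with flow cell as a term, at 0.089 ± 0.0501 (adjusted p = 0.214) for CD74, 0.13 ± 0.0594 (adjusted p = 0.113) for HLA-DRA, 0.071 ± 0.0714 (adjusted p = 0.527) for HLA-DRB1 and 0.12 ± 0.0515 (adjusted p = 0.0918) for B2M. In that fit the only depleted library that shared a flow cell with the Csi libraries was replicate 3. HLA-DRB1 and B2M also lost their calls without Csi replicate 1 (adjusted p = 0.0609 and 0.0681) or siSMAD2/3/4 replicate 1 (adjusted p = 0.178 and 0.115). HLA-C lost its call without Csi replicate 2 or 3 (adjusted p = 0.111 and 0.137) or siSMAD2/3/4 replicate 2 or 3 (adjusted p = 0.076 and 0.299), and in 3 other fits, but not with flow cell as a term (adjusted p = 0.00612). HLA-B (0.018 ± 0.0393) and HLA-E (-0.0073 ± 0.0387) were not called.

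In all, 4 of the 9 genes were higher and 3 lower after depletion, where 16.3% of all genes were higher and 19.7% lower. With flow cell as a term none was higher and 3 were lower, against 10.6% and 14.1% of all genes. NLRC5 rose (0.34 ± 0.0518, adjusted p = 3.64e-06), CIITA (-0.30 ± 0.0700, adjusted p = 0.000821) and IRF1 (-0.13 ± 0.0470, adjusted p = 0.034) fell. With flow cell as a term, IRF1 lost its call (-0.17 ± 0.0659, adjusted p = 0.0628) and CIITA was at -0.50 ± 0.0914 (adjusted p = 8.39e-05). Of the pathway lists, 12 of 61 tested genes were higher and 11 lower, or 10 and 8 with flow cell as a term. IFIT1 (0.76), OAS1 (0.73) and IRF7 (0.59) rose most, and the class II editor HLA-DOB (-0.92), OAS3 (-0.43) and PSMB9 (-0.35) fell most. Of these 6, HLA-DOB lost its call with flow cell as a term (adjusted p = 0.187), and it had only 44, 30 and 49 counts in Csi and 29, 16 and 20 in siSMAD2/3/4 libraries.

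**Figure D5:**
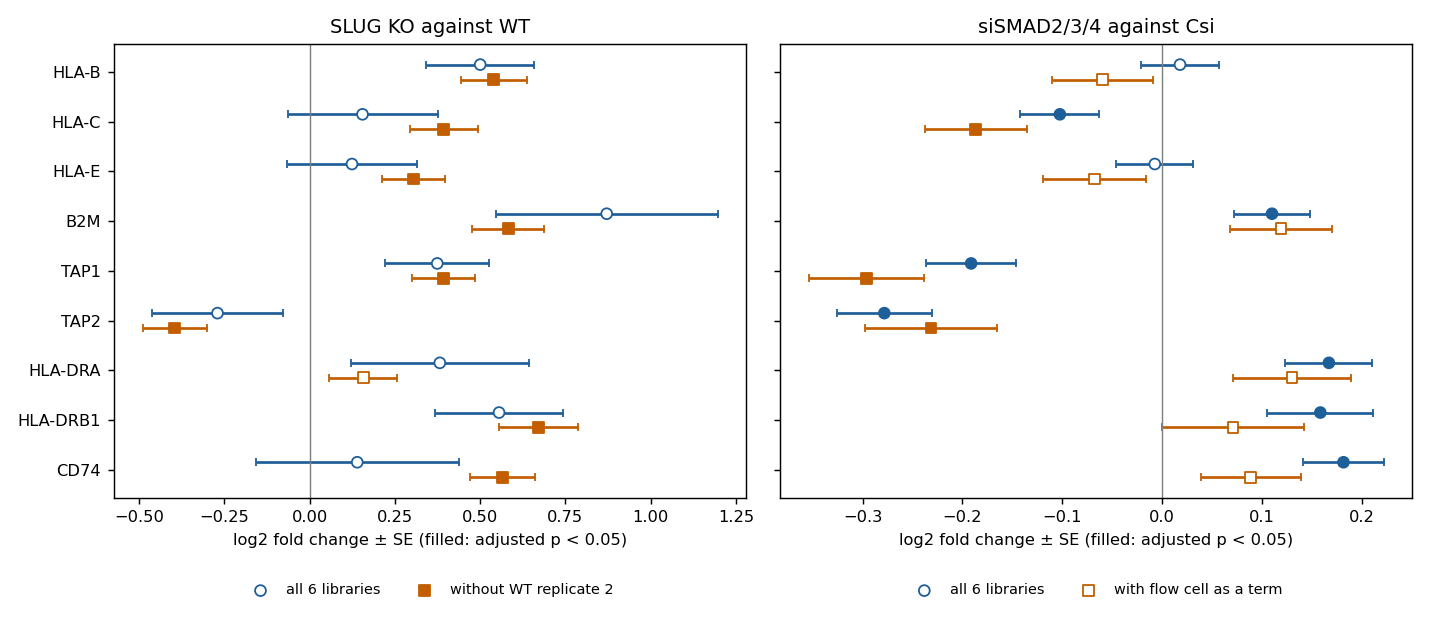
Log2 fold change ± SE of the 9 genes (edgeR) for SLUG KO against WT (left), with all 6 libraries (circles) and without WT replicate 2 (squares), and for siSMAD2/3/4 against Csi (right), with all 6 libraries (circles) and with flow cell as a term (squares), filled where the adjusted p is under 0.05. No circle is filled on the left, and on the right TAP1, TAP2 and HLA-C are filled in both fits.

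Over the means of the 8 groups, genes with the profile most like that of HLA-B (Pearson's r of mean log2 CPM) were TRAF5 (0.9990), OAS2 (0.9955), FZD4 (0.9944), TRIM25 (0.9942), ZNF585B (0.9938). For TAP1 they were MRPL2 (0.9952), BAP1 (0.9925), SMPD1 (0.9920), AREL1 (0.9911), SEC24D (0.9909), and for CD74 TMEM92 (0.9986), NFATC2 (0.9983), PLBD1 (0.9981), RASSF4 (0.9979), ACSS1 (0.9975). Of 15138 genes compared, 756 had r above 0.95 with HLA-B, 525 with TAP1 and 1007 with CD74. The 8 points share lines and batches, so these values describe a split between lines that many genes have. Among the 9 genes, r was 0.992 between HLA-B and TAP1 and 0.996 between HLA-DRA and HLA-DRB1, but -0.598 between HLA-B and B2M.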

How the data were processed

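Ribosomal RNA-depleted, stranded libraries of 24 samples were sequenced by the authors, trimmed with Trimmomatic, aligned to GRCh38 with STAR and counted with featureCounts 2.0.0 over exons of GENCODE 38 genes, per the file headers and the study's methods. Pairs with both ends mapped to 1 chromosome and a mapping quality of at least 30 were kept, and strand was ignored. The deposited files hold raw counts of 1 library each for 60708 genes, without normalization. Total counts of 14124688 to 38406952 per library leave the spread between libraries as the main error. The 16 ATAC-seq samples were not analysed here. Symbols were taken by Ensembl ID from GENCODE 44, which named 99.6% of the genes.

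Groups came from the sample labels. Each comparison was fitted on its own groups, 6 libraries, or 12 for the interaction. Genes passing filterByExpr were normalized with TMM, and a quasi-likelihood F test followed in edgeR 4.0.16 (R 4.3.3), the p-values being adjusted by Benjamini and Hochberg's method over every gene of the fit. A gene was called, and named higher or lower, at an adjusted p under 0.05. The SE is the log2 fold change divided by the square root of F. The p-values measure the spread between libraries labelled as biological replicates, and the labels do not say that these were separate cultures. Levels are CPM after TMM over 24 libraries, and profiles were compared over group means of log2 CPM with a prior count of 2, among genes with a mean of at least 1 CPM. Where the groups of a comparison are said not to overlap, the share of all genes without overlap was not computed.

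The 9 genes, the pathway and marker lists and the rules were chosen with earlier results of these data known. Named are the 9 genes, per comparison the 3 called pathway genes with the largest rise and the 3 with the largest fall, NLRC5, CIITA and IRF1 always, the 5 genes most alike in profile to HLA-B, TAP1 and CD74, the targeted genes and SMAD7. Some genes that the rule names are not reported here. The pathway lists are the other class I heavy chains, class I-like genes, peptide loading and trimming, the immunoproteasome, other class II genes, regulators of MHC genes and interferon-stimulated genes. Alternatives were DESeq2 1.42.0, its size factors used in edgeR, every gene with at least 1 count, at least 10 counts in every library, a replicate block, joint fits of 12 sphere or 18 batch libraries, flow cell as a term, and leaving out each library. None of these fits went without scaling of the libraries. The fits were tested on simulated counts. Promoter sequences are those of RefSeq (GRCh38.p14).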

Additional observations from a re-analysis of the deposited data

Results flagged for a closer look

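The response to TGFβ differed between the lines for 5 of the 9 genes, in edgeR's test of the difference between the responses. As the MII response minus the MI response on the log2 scale it was 0.64 for HLA-B, 0.26 for HLA-C, 0.52 for B2M, 0.59 for TAP1 and 0.94 for TAP2. HLA-B and B2M were lower in all 3 stimulated MI libraries than in any unstimulated one, and higher in all 3 stimulated MII libraries. Of the pathway genes named above, the difference was 1.27 for MICB, 1.06 for IFI27, 0.96 for PSMB9, 0.89 for NLRC5, 0.90 for IRF1, -0.41 for MICA and -0.46 for MR1. Groups of 3 libraries are too small for a test of single outlying libraries.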

How the results depend on the processing

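Of 814 alternative values of the 65 fold changes of the 9 genes, 743 kept their direction and their side of the threshold, 28 lost and 21 gained a call, and 22 changed sign, none of them for a gene called with all libraries. The number of called genes moved by more than 1.5 times in these cases. For TGFβ in MI-spheres it went from 3 to 5 with at least 10 counts in every library, and from 3 to 5 with the replicate number as a block. For unstimulated MII- against MI-spheres it went from 5 to 8 without a low-count filter. For SLUG KO it went from 0 to 3 in 1 fit of all 18 libraries of the batch, and for siSMAD2/3/4 from 7 to 3 with flow cell as a term. The causes were not tested. Leaving out 1 library at a time gave 2 to 4 called genes for TGFβ in MI- and 5 in MII-spheres, 5 for unstimulated and 5 to 7 for stimulated MII- against MI-spheres, 4 to 5 for the interaction, 0 to 8 for SLUG KO, 5 to 6 for siSMAD2/3/4 and 6 to 9 for WT against MI-spheres. Pathway genes called for SLUG KO numbered 4, against 10 with DESeq2, 1 with at least 10 counts, 0 with the replicate block, 20 in the fit of the batch and 30 without WT replicate 2.

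The replicate numbers did not pair the libraries: deviations of same-numbered libraries from their group means correlated between -0.219 and 0.101. With the replicate block, 5, 5, 5, 6, 5, 0, 6 and 7 of the 9 genes were called in the 8 comparisons, in the order MI, MII, unstimulated, stimulated, interaction, SLUG KO, siSMAD2/3/4 and WT.

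The sign changes were these. HLA-C in unstimulated MII- against MI-spheres was -0.015 with DESeq2, -0.029 without a filter and -0.012 to 0.019 with 1 library left out. After SMAD depletion HLA-E was 0.0034 with at least 10 counts and -0.032 to 0.028 with 1 library left out, and HLA-B -0.0598 with flow cell and -0.017 to 0.061. For WT against MI-spheres HLA-E was 0.044 in the fit of the batch and -0.21 to 0.076 with 1 library left out. The other ranges with 1 library left out were -0.38 to 0.13 for CD74 with TGFβ in MI-spheres, -0.069 to 0.024 for TAP2 in stimulated spheres, -0.064 to 0.051 for HLA-E and -0.25 to 1.76 for HLA-DRA in the interaction, and -0.024 to 0.57 for CD74 in SLUG KO.

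Of 63 neighbouring groups in the order of levels, 34 were separated with TMM, 37 with DESeq2's size factors and 39 without scaling, against 39.2%, 39.8% and 39.7% over all genes of at least 1 CPM. The 3 libraries per group limit the precision, an exact permutation test of 3 against 3 cannot give a p under 0.1, and HLA-DRA and HLA-DRB1 in spheres are limited by counts of 0 to 21 per library.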
